A study of Mus musculus with 18 samples.

Results

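RNA sequencing of splenic erythroblasts was compared between mice with 2 D45 alleles of Klf1 (D45/D45) and mice with 2 wild-type alleles (WT/WT). D45 is a missense allele that the series title places in linker-2, a short stretch between zinc fingers of the protein. The comparison held 6 of the 18 libraries of the series, chosen by the genotype in their labels, with 3 D45/D45 and 3 WT/WT libraries that the series design calls biological replicates. The cells were sorted from spleen as CD71+ (transferrin receptor) and TER119+ (a red cell surface marker) cells. WT/D45 libraries (1 D45 and 1 wild-type allele, 3 libraries), WT/KO libraries (1 wild-type and 1 knockout allele, 5 libraries) and D45/KO libraries (1 D45 and 1 knockout allele, 4 libraries) entered the same fit, and their values and the comparison of D45/KO with WT/KO are set beside the D45/D45 results below. All mice of the last 2 genotypes carry a knockout allele, and D45/KO is the compound heterozygote that, per the series design, becomes anaemic through haemolysis and has an enlarged spleen. The labels give no age, sex, strain background or treatment, and the sources used here do not say how the knockout allele was made.

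KLF1 is a zinc finger transcription factor of the erythroid lineage. It binds CACC-box motifs in promoters and enhancers and activates genes for adult beta globin, the red cell membrane and its skeleton, haem synthesis and the cell cycle during red cell maturation. Linkers between zinc fingers help to place the fingers on DNA.

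Total counts were 20.7 to 23.5 M (M is 1000000 counts) in the WT/WT libraries and 21.4 to 42.0 M in the D45/D45 libraries. Replicate 1 of each genotype was rich in B cell transcripts, with mean log2 CPM over 18 B cell markers of 6.47 in WT/WT and 5.999 in D45/D45, against -1.17 and -0.19 in WT/WT replicates 2 and 3 and -1.80 and -0.84 in D45/D45 replicates 2 and 3. CPM is counts per M of the library size after TMM scaling. Each side thus held 1 library of this kind, which was also its library with the lowest share of globin counts (9.93% in WT/WT and 9.46% in D45/D45). Globin counts made up 37.8% and 47.2% of WT/WT replicates 2 and 3 and 26.9% and 32.5% of D45/D45 replicates 2 and 3. The defining erythroblast genes were abundant in all 6 libraries, with summed levels of 43649 to 755270 CPM over 14 markers, 1 of which was at 0 in each library, although the alpha globin genes held at most 16 counts in a library under the symbols of the table.

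Klf1 itself was measured at 452, 1047 and 964 CPM in WT/WT replicates 1 to 3 and at 710, 1576 and 1394 CPM in D45/D45 replicates 1 to 3. The levels of the 2 genotypes overlapped, with a log2 difference of 0.58 ± 0.64 (SE, n = 3 against 3). A missense allele leaves a transcript to be counted, so that this level does not check the labels.

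No gene of 13405 tested (0%) was called at an adjusted p under 0.05 between D45/D45 and WT/WT by edgeR's quasi-likelihood test with genotype as the only term, and 545 (4.07%) had an unadjusted p under 0.05, 327 higher (2.44%) and 218 lower (1.63%) in D45/D45. The replicate number of the labels, added to that model as a block, gave 10 called genes (0.0746%), of which 6 were higher (0.0448%) and 4 lower (0.0298%) in D45/D45. Same-numbered libraries of the 2 genotypes deviated together from their group means, clearly so only for replicate 1, the B cell rich pair (correlation 0.71). Replicates 2 and 3 had 0.35 and 0.19, where D45/D45 replicate 3 with WT/WT replicate 2 had 0.28. The numbers are read here as pairing the libraries, a reading taken from these same data. Across the 18 libraries a number does not mark 1 kind of library, since replicates 2 and 3 of WT/KO and D45/KO were rich in B cell markers. The block calls rested on the libraries low in B cell transcripts: there were 0 calls when any of replicates 2 and 3 of either genotype was left out, 6 without WT/WT replicate 1 and 9 without D45/D45 replicate 1. DESeq2 called 68 genes (0.507%; 0.186% higher and 0.321% lower), limma-voom 0 and limma-voom with library weights 138 (1.03%). The block on the 6 libraries alone called 16 (0.153%; 0.0478% higher and 0.105% lower), of which 2 are among the 10, Cacna1g and Eef2k. The labels give each library the number of its own mouse, and no label says which libraries share a sorting day.

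The 4 genes lower in D45/D45 with the block include the largest difference of the 10. Cacna1g, which encodes the pore of a T-type calcium channel, was at 44.6, 143 and 68.8 CPM in WT/WT replicates 1 to 3 and at 2.65, 3.21 and 4.42 CPM in D45/D45 replicates 1 to 3. The highest D45/D45 library thus lay far below the lowest WT/WT library. The log2 difference of Cacna1g was -4.64 ± 0.82 (SE), a 24.9-fold lower level, with an edgeR adjusted p of 0.104 without the block and 0.0207 with it. Sec14l1, a member of the SEC14 family of lipid-binding proteins, was at 58.1, 152 and 153 CPM in WT/WT and at 21.0, 19.9 and 21.8 CPM in D45/D45. Its 3 D45/D45 libraries were nearly level and all below the WT/WT library rich in B cell transcripts, the lowest of the WT/WT libraries, and the log2 difference was -2.53 ± 0.45 (edgeR adjusted p = 0.104, with the block 0.0207). Eef2k, the kinase that phosphorylates and inhibits the translation elongation factor eEF2, was at 107, 216 and 160 CPM in WT/WT and at 28.2, 43.6 and 41.0 CPM in D45/D45. Its log2 difference was -2.10 ± 0.41 (edgeR adjusted p = 0.182, with the block 0.0207). G3bp2, an RNA-binding protein of stress granules, was at 70.0, 191 and 146 CPM in WT/WT and at 36.3, 29.9 and 19.3 CPM in D45/D45. Its log2 difference was -2.25 ± 0.40 (edgeR adjusted p = 0.104, with the block 0.0366). Exons of Eef2k and G3bp2 overlap an annotated transcript on the opposite strand, and the sources used here do not say whether reads were counted by strand.

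The 6 genes higher in D45/D45 with the block have diverse products. Glipr2, a protein of the Golgi membrane, was at 9.45, 2.06 and 10.7 CPM in WT/WT and at 61.6, 58.4 and 56.5 CPM in D45/D45. That is the largest of the 6 differences, at a log2 difference of 2.99 ± 0.62 or 7.94-fold (edgeR adjusted p = 0.184, with the block 0.0366). Ttyh3, a membrane protein of the tweety family, was at 42.7, 14.3 and 31.9 CPM in WT/WT and at 115, 135 and 177 CPM in D45/D45. Its log2 difference was 2.26 ± 0.41 (edgeR adjusted p = 0.109, with the block 0.0207). Reep6, of a family of proteins that shape the endoplasmic reticulum, was at 8.63, 3.48 and 6.29 CPM in WT/WT and at 30.1, 30.2 and 37.9 CPM in D45/D45. Rap1gap, which switches off the small GTPase Rap1, was at 14.2, 4.91 and 7.69 CPM in WT/WT and at 41.9, 33.5 and 37.9 CPM in D45/D45. For both genes the D45/D45 libraries stood close together and above every WT/WT library. The log2 difference was 2.41 ± 0.63 for Reep6 (edgeR adjusted p = 0.537, with the block 0.0366), the highest adjusted p without the block of the 10 genes. For Rap1gap it was 2.07 ± 0.48 (edgeR adjusted p = 0.296, with the block 0.0266). Scai, which binds a coactivator of serum response factor and inhibits it, was at 16.4, 9.19 and 15.8 CPM in WT/WT and at 45.7, 44.4 and 60.7 CPM in D45/D45. Its log2 difference was 1.86 ± 0.32 (edgeR adjusted p = 0.104, with the block 0.0342). Suv420h2, a histone methyltransferase now named Kmt5c, was at 61.7, 53.1 and 79.2 CPM in WT/WT and at 149, 278 and 255.8 CPM in D45/D45. The D45/D45 library rich in B cell transcripts had the lowest of its 3 values, and the log2 difference was 1.81 ± 0.44 (edgeR adjusted p = 0.402, with the block 0.0366).

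**Figure D1:**
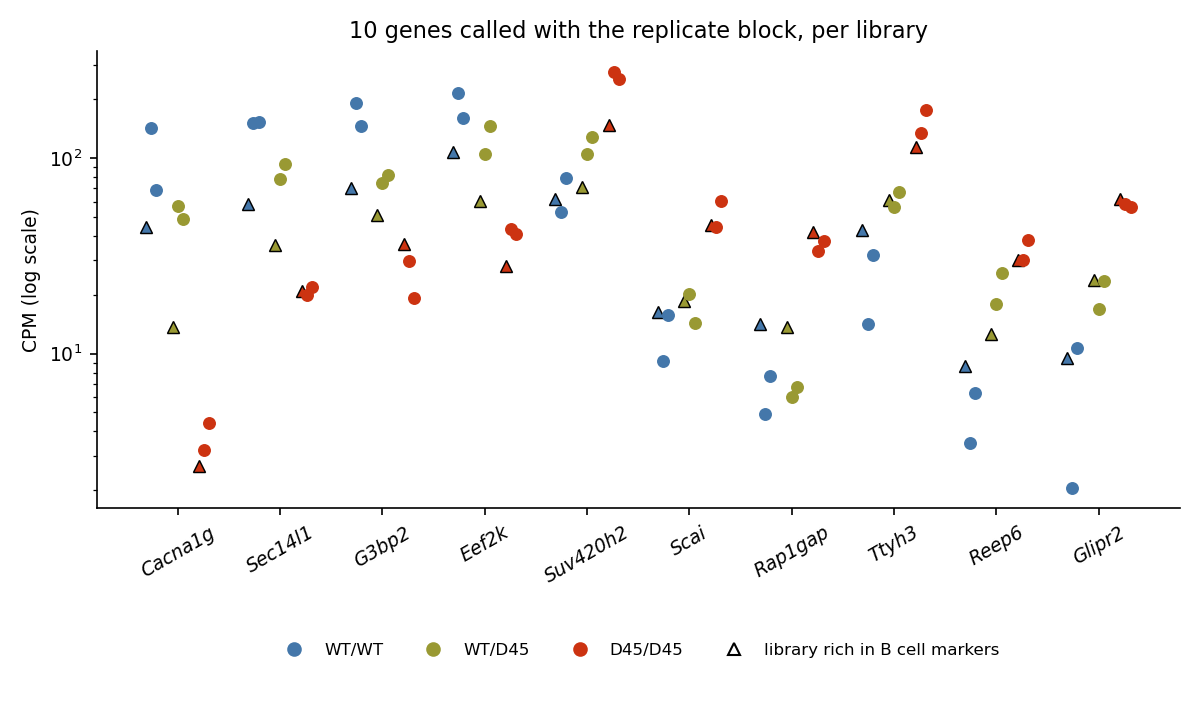
Level of the 10 genes called with the replicate block in each WT/WT, WT/D45 and D45/D45 library (CPM, log scale), with triangles for the library of each genotype that is rich in B cell markers. For all 10 genes the D45/D45 libraries lie on 1 side of the WT/WT libraries, and Cacna1g lies lowest in D45/D45 at 2.65 to 4.42 CPM.

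For all 10 genes the libraries of the 2 genotypes were apart, where 11% of all genes tested had groups that did not overlap (7.38% higher and 3.65% lower). The genes were selected on this same contrast, so that the count is a description. Groups that are apart must differ in the same direction in the pair of B cell rich libraries and in the other 4. That shared direction, seen for 10 of 10 genes, is thus no separate check. The sizes were 0.95 to 4.04 (log2 CPM) in the pair and 2.04 to 4.70 in the others. WT/D45 libraries gave a mean between those of WT/WT and D45/D45 for 9 of the 10 genes. The genes were selected for a wide gap between those 2 genotypes, into which the mean of another group is likely to fall. Nothing is read from this count. Cacna1g was at 13.8, 57.1 and 48.7 CPM and Glipr2 at 23.8, 17.0 and 23.5 CPM in WT/D45 replicates 1 to 3. The exception was Rap1gap, at 13.8, 5.98 and 6.74 CPM in WT/D45, values within the range of WT/WT. Over 19 settings of the analysis each of the 10 genes was called in 3 to 8, from Reep6 in 3 to Sec14l1 and Eef2k in 8, and their highest adjusted p ran from 0.813 to 1.

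Promoters are shown for 2 of the genes that were higher and 2 that were lower. They set the windows richest in matches to the pattern CCNCNCCC beside windows with none. Each sequence is the 250 bases before the start of the first listed transcript, 5′ to 3′ on the strand of the gene, from RefSeq (GRCm38.p6, a later build than the mm9 of the submitters' processing notes). Capitals mark matches to CCNCNCCC on either strand, a form of the motif that KLF1 is known to bind. N stands for any base, so that the pattern also marks C-rich stretches without the letters CACC. The windows are chr5:140649032-140649281 (minus strand) for Ttyh3, chr11:117114918-117115167 (plus) for Sec14l1, chr2:39190731-39190980 (minus) for Scai and chr7:120842581-120842830 (plus) for Eef2k.
Ttyh3: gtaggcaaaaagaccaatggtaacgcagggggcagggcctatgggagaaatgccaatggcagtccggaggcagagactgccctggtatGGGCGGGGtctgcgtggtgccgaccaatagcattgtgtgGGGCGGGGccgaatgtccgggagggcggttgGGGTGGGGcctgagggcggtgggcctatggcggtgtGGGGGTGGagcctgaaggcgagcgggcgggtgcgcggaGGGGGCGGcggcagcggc
Sec14l1: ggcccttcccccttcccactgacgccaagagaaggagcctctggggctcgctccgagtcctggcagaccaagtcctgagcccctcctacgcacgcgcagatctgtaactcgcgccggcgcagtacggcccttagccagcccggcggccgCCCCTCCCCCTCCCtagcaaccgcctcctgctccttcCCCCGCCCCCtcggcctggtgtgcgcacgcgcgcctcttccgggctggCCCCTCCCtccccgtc
Scai: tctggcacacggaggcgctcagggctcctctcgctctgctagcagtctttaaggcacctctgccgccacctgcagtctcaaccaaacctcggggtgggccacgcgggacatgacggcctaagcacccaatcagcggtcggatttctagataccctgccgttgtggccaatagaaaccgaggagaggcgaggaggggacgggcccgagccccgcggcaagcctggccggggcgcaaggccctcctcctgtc
Eef2k: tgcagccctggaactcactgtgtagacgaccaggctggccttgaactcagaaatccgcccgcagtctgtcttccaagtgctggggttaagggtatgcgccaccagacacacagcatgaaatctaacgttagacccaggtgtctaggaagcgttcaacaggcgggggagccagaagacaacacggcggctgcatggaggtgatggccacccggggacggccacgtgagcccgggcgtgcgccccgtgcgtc

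The Ttyh3 window held 5 matches to CCNCNCCC and the Sec14l1 window 6, some of which overlap, while the Scai and Eef2k windows held 0. The higher Ttyh3 and the lower Sec14l1 were thus both rich in matches, and the windows shown for the lower Eef2k and the higher Scai both lacked them. The marked stretches of Sec14l1 do not hold CACC on either strand, and only some of those of Ttyh3 do. The letters CACC alone do occur in the Scai and Eef2k windows. Of 3 windows that the table lists for Eef2k, 1 other holds a match, while Scai has 1 window. Of the 10 genes, 8 matched an entry of the RefSeq promoter table and 6 of the 8 had at least 1 match, against 45.6% of the first windows of 27025 genes. The bases G and C made up 53.6% to 73.6% of the 8 windows. The windows of all genes were not matched for this share, so that no excess is read from the count. The GATA-type letters AGATAA, also searched on both strands, were in 0 of the 8 windows and in 10.3% of all first windows. A match is only a run of letters, and a window without a match says nothing about more distant sites.

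Other genes were among the 8 in each direction with the smallest unadjusted p of those whose groups did not overlap. They were not called with genotype alone or with the block. Over 19 settings of the analysis each was called in 2 to 6, from Zfp790 in 2 to Tinagl1 in 6. Tinagl1, a secreted matrix-associated protein, was at 89.2, 232 and 164.1 CPM in WT/WT and at 0.368, 0.643 and 1.29 CPM in D45/D45. Every D45/D45 library was far below every WT/WT library, with a log2 difference of -7.73 ± 1.597, an edgeR adjusted p of 0.184, 0.0908 with the block and 0.0025 with the mean level of the B cell markers as a covariate. WT/D45 libraries had 4.81, 21.99 and 16.3 CPM of Tinagl1, between the other 2 genotypes and apart from both. Rgcc, a regulator of cell cycle kinases, was at 36.1, 165.7 and 105 CPM in WT/WT and at 0.884, 1.43 and 0.167 CPM in D45/D45, with 20.2, 13.5 and 15.6 CPM in WT/D45. Its log2 difference was -6.97 ± 1.39 (edgeR adjusted p = 0.184, 0.0908 with the block and 0.010 with the covariate). The exocyst subunit Exoc2 and the ubiquitin ligase adaptor Klhl21 were also below every WT/WT library, at 5.43 to 12.7 CPM against 24.2 to 43.6 for Exoc2 and 5.59 to 7.001 CPM against 14.7 to 64.3 for Klhl21. On the higher side were Cyhr1 (50.9 to 107 CPM against 12.7 to 33.8 in WT/WT), Them6 (27.98 to 58.7 against 12.2 to 15.2), Pinx1, an inhibitor of telomerase (6.33 to 27.7 against 2.92 to 6.18), and the zinc finger gene Zfp790 (16.6 to 24.3 against 4.89 to 8.39). Exons of Klhl21, Cyhr1 and Them6 overlap a gene on the opposite strand.

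The D45 allele was also measured beside a knockout allele, in the 4 D45/KO and 5 WT/KO libraries, none of which is a D45/D45 or WT/WT library. All of the 10 genes differed in the same direction there, where 87% of the 545 genes with an unadjusted p under 0.05 in D45/D45 against WT/WT and 69.4% of all genes tested did. Of the 10, 2 were called, Cacna1g and Scai, where 0.172% of genes tested were called in that comparison. Cacna1g was at 12.8 ± 10.6 CPM (SD, n = 5) in WT/KO and 0.225 ± 0.106 CPM (SD, n = 4) in D45/KO, a log2 difference of -5.90 ± 0.77 (edgeR adjusted p = 0.00507). Scai was at 28.9 ± 9.01 CPM in WT/KO and 93.8 ± 17.7 CPM in D45/KO, a log2 difference of 1.70 ± 0.25 (edgeR adjusted p = 0.00632). The other 8 had log2 differences from -1.39 (Eef2k) to 2.23 (Glipr2) beside a knockout allele, and 9 of the 10 genes had a smaller difference there than between D45/D45 and WT/WT, Cacna1g being the exception. The 10 were selected on the latter contrast, which by itself makes a smaller size in other libraries likely, so that nothing is read from this count. G3bp2 stood apart, at -0.41 ± 0.31 beside a knockout allele against -2.25 ± 0.40 without it. The test of the difference between the 2 differences gave -1.84 ± 0.49 for G3bp2 (unadjusted p = 0.00175) and -1.30 ± 0.55 for Sec14l1 (unadjusted p = 0.0311), with an edgeR adjusted p of 1 for each, and 0 of 13405 genes were called in that test by edgeR (0%), with 174 at an unadjusted p under 0.05 (1.3%) and 2 called by DESeq2.

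Read the other way, the 23 genes called in D45/KO against WT/KO (0.172%), 15 higher (0.112%) and 8 lower (0.0597%), had the same direction in D45/D45 against WT/WT for 15 of 15 and 8 of 8. Over all 13405 genes tested, 69.4% had the same direction in both comparisons. The differences were smaller in D45/D45 against WT/WT for 14 of the 15 and 8 of the 8, with medians of 1.30 against 1.85 (log2) for the higher and -1.58 against -3.61 for the lower genes, where the median of all genes was 0.01. These genes were selected on D45/KO against WT/KO, and nothing is read from their smaller size here for the same reason. None of the 23 was called between D45/D45 and WT/WT by edgeR with genotype alone. Of the 15 and the 8, 12 and 6 had groups that did not overlap (7.38% higher and 3.65% lower over all genes). An unadjusted p under 0.05 was found for 9 and 6 (2.44% and 1.63% over all genes).

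Among the 8 lower genes, Slc6a20a, an amino acid transporter, was at 23.1, 30.8 and 25.4 CPM in WT/WT and at 3.72, 9.36 and 7.31 CPM in D45/D45. Snx22, a sorting nexin, was at 121, 258 and 200 CPM in WT/WT and at 23.0, 59.7 and 52.2 CPM in D45/D45. Nxpe2 was at 248, 479 and 430 CPM in WT/WT and at 98.4, 155 and 132 CPM in D45/D45. For these 3 genes each D45/D45 library lay below each WT/WT library, and the log2 differences were -1.96 ± 0.64, -2.10 ± 0.74 and -1.59 ± 0.64, against -3.35, -3.86 and -4.13 beside a knockout allele. Slc1a5, a glutamine transporter, was at 216, 604 and 665 CPM in WT/WT and at 110, 247 and 214 CPM in D45/D45. The WT/WT library rich in B cell transcripts fell within the D45/D45 range of Slc1a5, and the log2 difference was -1.38 ± 0.66 (edgeR adjusted p = 1 without and 0.517 with the block, and 0.010 with the B cell marker covariate), against -3.11 beside a knockout allele. Fsd1l and Svip were also lower in each D45/D45 than in each WT/WT library, with log2 differences of -1.58 and -0.91. Exons of Snx22 and Slc6a20a overlap a gene on the opposite strand.

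Among the 15 higher genes, Golim4, a Golgi membrane protein, was at 60.0, 52.4 and 66.9 CPM in WT/WT and at 105, 133 and 144 CPM in D45/D45 (log2 difference 1.09 ± 0.35, against 1.66 beside a knockout allele). Gpr56, an adhesion receptor, was at 0.611, 10.3 and 7.69 CPM in WT/WT and at 33.6, 21.1 and 25.1 CPM in D45/D45. Podxl, the sialomucin podocalyxin, was at 2.68, 2.85 and 1.63 CPM in WT/WT and at 26.3, 10.6 and 12.1 CPM in D45/D45. Their log2 differences were 2.11 ± 0.77 and 2.76 ± 1.07, against 4.71 and 5.14 beside a knockout allele. Cish, a feedback inhibitor of cytokine signalling that STAT5 induces, differed from these. It was at 6.30, 2.69 and 14.1 CPM in WT/WT and at 38.6, 8.001 and 17.4 CPM in D45/D45, groups that overlap, with a log2 difference of 1.48 ± 1.08 against 6.01 ± 1.03 beside a knockout allele. Smaller differences between D45/D45 and WT/WT were 0.80 ± 0.25 for the exocyst subunit Exoc6, 0.60 ± 0.24 for the signal recognition particle subunit Srp72 and 0.48 ± 0.24 for the clathrin adaptor Clint1. The carboxypeptidase Cpd and the esterase Esd had differences of 0.77 ± 0.40 and 0.51 ± 0.36.

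**Figure D2:**
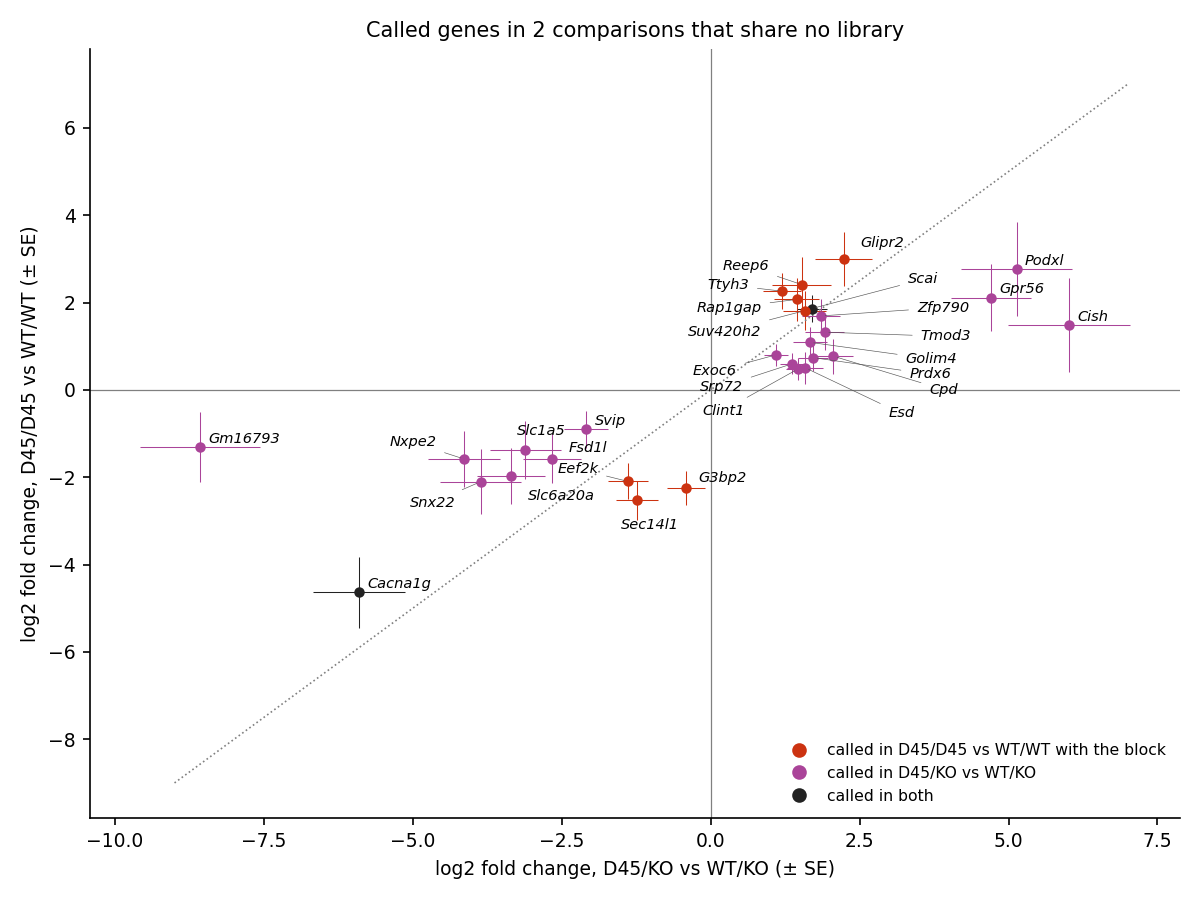
Log2 fold change with its SE in D45/D45 against WT/WT (vertical axis) and in D45/KO against WT/KO (horizontal axis) for the genes called in either comparison, leaving out Sstr5 and Cda, which lie beyond the right edge, with the dotted line where both are equal. All genes shown have both values above or both below 0. Cacna1g and Scai were called in D45/KO against WT/KO. In D45/D45 against WT/WT they were called with the replicate block and not by edgeR with genotype alone.

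Gene lists of the pathways in which KLF1 is known to act were near the median of all genes, and 1 member of them was called with the block (Cacna1g, lower). The textbook KLF1 targets had a median log2 difference of -0.04 over 43 members tested, with 21 above and 22 below 0 and 0 called. Medians were -0.05 for 24 genes of the membrane skeleton, 0.06 for 36 membrane transporters, -0.06 for 26 blood group and surface glycoproteins, 0.01 for 32 genes of haem synthesis and iron handling, -0.25 for 22 genes of glycolysis, 0.02 for 33 erythroid transcription factors, -0.11 for 28 genes of terminal maturation and 0.00 for 32 genes of the erythropoietin response. Genes of early progenitors stood lower, with a median of -0.53 over 18 members, 16 of them below 0 and 0 with an unadjusted p under 0.05. Medians were 0.19 for 25 genes of the p53 response and apoptosis, -0.12 for 27 antioxidant genes and 0.12 for 29 genes of the integrated stress response. Of 22 mostly erythroid genes listed whatever their values, 17 had a log2 difference between -1 and 1, and 0 were called with the block. Slc4a1, the anion exchanger band 3, was at 8159, 28264 and 35627 CPM in WT/WT and at 10728, 31717 and 30648 CPM in D45/D45, a log2 difference of 0.02 ± 1.38. The SE of Slc4a1 leaves room for more than a 2-fold change in either direction. The ankyrin gene Ank1 had 0.30 ± 0.71, the Rh-associated glycoprotein gene Rhag 0.42 ± 0.76, Gata1 0.81 ± 0.64, the erythropoietin receptor gene Epor 0.26 ± 0.66 and Alas2, the erythroid enzyme that starts haem synthesis, -0.77 ± 1.45. Dematin (Epb4.9), an actin-bundling protein of the skeleton, was at 665, 1906 and 1773 CPM in WT/WT and at 414, 1223 and 1020 CPM in D45/D45, with -0.71 ± 0.79.

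Single members of these lists had unadjusted p-values under 0.05, and none of those named next was called with genotype alone or with the block. Over 19 settings of the analysis Tkt and Gstm5 were called in 2 each, Lrrc8b, Ldb1 and Cd59a in 1 each and the others in 0. The tropomodulin gene Tmod3, whose product caps actin filaments, was higher by 1.32 ± 0.40, from 33.3 to 83.8 CPM in WT/WT to 96.5 to 209 CPM in D45/D45. Lrrc8b, a subunit of the volume-regulated anion channel, was higher by 2.18 ± 0.75, from 4.75 to 15.1 CPM to 31.6 to 52.4 CPM. The iron-sensing receptor gene Tfr2 had 1.06 ± 0.47 and transketolase (Tkt), of the pentose phosphate pathway, 1.34 ± 0.45. Among transcription factors, Klf6 had 1.26 ± 0.47, Ldb1, which bridges the GATA1 complex to distant sites, 0.58 ± 0.26, and Nfe2l2 0.67 ± 0.31. Trp53 had 0.73 ± 0.31, and the antioxidant genes Gstm5 and Prdx6 had 1.61 ± 0.55 and 0.74 ± 0.31. For all of these except Gstm5 every D45/D45 library was above every WT/WT library. Cd59a, a complement regulator of the red cell surface, was lower by 1.32 on the log2 scale, with 27.4 to 168 CPM in WT/WT and 25.8 to 63.6 CPM in D45/D45, ranges that overlap.

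Replication and mitosis genes had small differences, nearly all above 0. The list of genes of S, G2 and M phase had a median of 0.37 over 35 members, with 33 above 0, where 50.8% of all genes were above 0. None of the 35 was called and 0 had an unadjusted p under 0.05, and 7 had D45/D45 libraries all above the WT/WT libraries (20%, against 7.38% of all genes). The 7 were the replication licensing genes Mcm2, Mcm3, Mcm4, Mcm5, Cdc6 and Cdt1 and the clamp loader subunit Rfc4, named here after their values were seen. Mcm2 was at 367, 414 and 352 CPM in WT/WT and at 468, 583 and 614 CPM in D45/D45 (log2 difference 0.55 ± 0.48). Cdc6 was at 213, 248 and 191 CPM in WT/WT and at 261, 384 and 350 CPM in D45/D45 (0.61 ± 0.49). The members of this list share a phase of the cell cycle and are not independent of each other. The mean log2 CPM over the list was 7.82, 8.35 and 8.16 in WT/WT replicates 1 to 3. In D45/D45 it was 7.98, 8.69 and 8.74, so that the groups overlap. Over the settings tried the median of the list ran from 0.21 to 0.60. The 28 genes of the G1/S list had a median of 0.20, with 4 members whose D45/D45 libraries were all above those of WT/WT (14.3%, against 7.38% of all genes) and 2 all below (7.14%, against 3.65%). The 4 were Tfdp1, Cdk2, Ccnd3 and Ccne2, with log2 differences of 0.55, 0.63, 0.26 and 0.30, and the 2 were Rgcc and the cyclin gene Ccnd1, at 0.929 to 3.02 CPM against 5.83 to 8.55 CPM. All except Rgcc were named after their values were seen, and exons of Ccnd3, Ccne2 and Ccnd1 overlap a gene on the opposite strand.

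**Figure D3:**
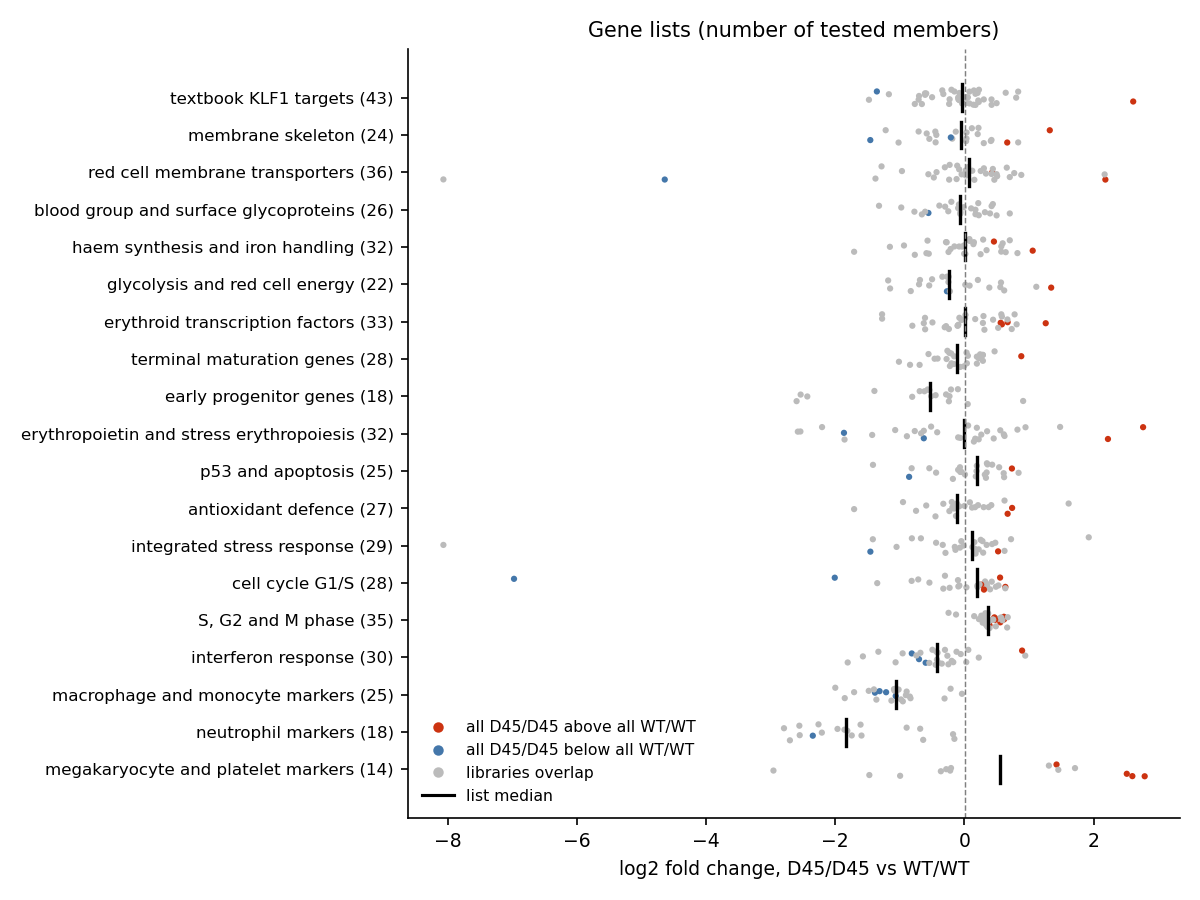
Log2 fold change in D45/D45 against WT/WT of each tested member of 19 gene lists, with the number tested beside the name of the list, the list median as a bar and the median of all genes as a dashed line. Red and blue points are members whose D45/D45 libraries lie all above or all below the WT/WT libraries, and 33 of 35 genes of S, G2 and M phase lie above 0.

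Markers of other spleen cells were present in the sorted cells, and for most types the median difference of D45/D45 against WT/WT was below 0. In bulk RNA fewer cells of a type and less RNA per cell cannot be told apart. All 18 neutrophil markers were lower in D45/D45 (median -1.84), with summed levels of 239, 322 and 134 CPM in WT/WT replicates 1 to 3 and 176, 24.1 and 3.76 CPM in D45/D45 replicates 1 to 3. The summed neutrophil levels overlapped, and up to 8 of the 18 markers were at 0 in a library. All 25 macrophage and monocyte markers tested were lower (median -1.06), with summed levels of 596, 603 and 1266 CPM in WT/WT and 529, 323 and 399 CPM in D45/D45. The summed macrophage levels did not overlap, and 4 of the 25 markers were below every WT/WT library (16%, against 3.65% of all genes), the complement genes C1qa and C1qc, the receptor gene Mertk and Emr1, which encodes F4/80. The neutrophil gene Lcn2 was at 8.86 to 13.6 CPM in WT/WT and at 0.0835 to 5.597 CPM in D45/D45. All 18 B cell markers were lower (median -0.48), at 2673, 134 and 272 CPM in WT/WT and 1875, 68.6 and 81.2 CPM in D45/D45. Between 4 and 9 of the 18 were at 0 in each library of replicates 2 and 3. There the direction was mixed, as with Cd79b (2.16, log2) and Cd79a (-3.19), so that the shared direction leans on the replicate 1 pair. Median differences were -0.24 for 20 T and NK cell markers, -0.85 for 10 mast cell and basophil markers and -0.87 for 12 endothelial and stromal markers. In these lists 7, 2 and 5 members had a log2 difference above 0, and the summed levels of each list overlapped between the genotypes. In WT/WT replicate 2, 18 of the 20 T and NK cell markers were at 0. None of these markers was called with genotype alone or with the block, while over 19 settings of the analysis Lcn2 was called in 2 and C1qa in 1. Their part in the differences above was not tested, beyond the B cell covariate and the fit without the B cell rich libraries. Those 2 fits called 8 and 10 of the 10 genes of the block, where 0.388% and 1.36% of all genes tested were called. The 10 were selected on this same contrast in overlapping libraries, so that nothing is read from these counts. Neither fit has a term for the other cell types. The interferon response list had a median of -0.42 over 30 members, 25 of them below 0, and 0 had an unadjusted p under 0.05. Its mean log2 CPM was 3.84, 3.08 and 4.19 in WT/WT replicates 1 to 3 and 3.93, 3.49 and 3.25 in D45/D45. These groups overlap, and the median difference in the replicate 1 pair was -0.07.

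Markers of megakaryocytes and platelets were mixed, and a few abundant members were higher in D45/D45. Their summed levels, of which Itga2b made up the larger part in each D45/D45 library, were 39.8, 64.1 and 212 CPM in WT/WT and 226, 633 and 510 CPM in D45/D45, and the lowest D45/D45 library stood just above the highest WT/WT library. The median over 14 members tested was 0.55, with 7 above and 7 below 0, and 4 members had an unadjusted p under 0.05, all higher. Itga2b, the platelet integrin subunit CD41, was at 8.39, 19.9 and 137 CPM in WT/WT and at 137, 444 and 357 CPM in D45/D45 (log2 difference 2.51 ± 0.98). The thrombin receptor gene F2r was at 1.41, 1.27 and 1.63 CPM in WT/WT and at 7.51, 13.3 and 9.02 CPM in D45/D45 (2.79 ± 0.75). Gp9 and Vwf, chosen after their values were seen, had log2 differences of 1.42 ± 0.60 and 1.71 ± 0.72. None of the 4 was called with genotype alone or with the block. Over 19 settings of the analysis Itga2b was called in 2 and F2r, Gp9 and Vwf in 1 each. Between 2 and 11 of the 17 markers of this list were at 0 in each of the 6 libraries.

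**Figure D4:**
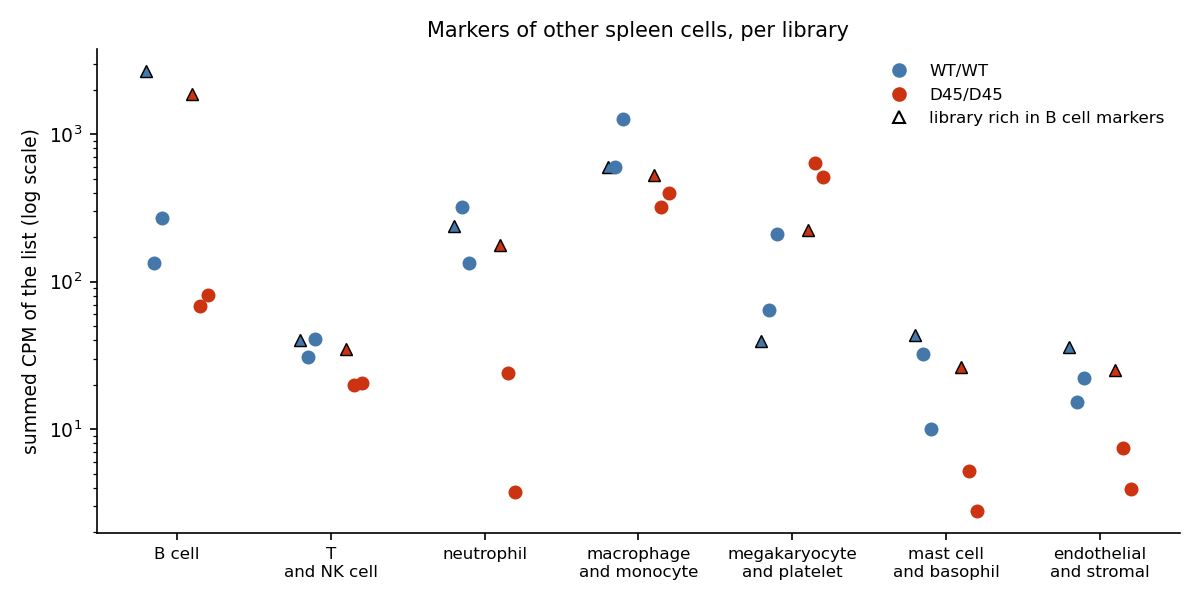
Summed CPM (log scale) of markers of 7 other spleen cell types in each WT/WT and D45/D45 library, with triangles for the library of each genotype rich in B cell markers. D45/D45 libraries are below all WT/WT libraries for macrophages and monocytes (323 to 529 against 596 to 1266 CPM) and above them for megakaryocytes and platelets (226 to 633 against 39.8 to 212 CPM).

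Globin counts were 22.9% ± 12.0 of all counts in D45/D45 and 31.6% ± 19.4 in WT/WT (SD, n = 3 each), groups that overlap (exact permutation test, two-sided, p = 0.5). The total rested on 2 adult beta globin genes, and their ratio, noticed after the values were seen, separated the genotypes. Counts of Hbb-b1 were 0.903, 0.967 and 0.983 times those of Beta-s in WT/WT replicates 1 to 3 and 0.728, 0.741 and 0.683 times in D45/D45 replicates 1 to 3. The mean was 0.717 ± 0.030 in D45/D45 and 0.951 ± 0.042 in WT/WT (SD, n = 3 each; exact permutation test, two-sided, p = 0.1, the smallest that 3 against 3 allow). WT/D45 libraries had 0.914, 1.001 and 0.857. Beside a knockout allele the ratio was 0.676 ± 0.119 in D45/KO (n = 4) and 0.832 ± 0.149 in WT/KO (n = 5), groups that overlap (exact permutation test, two-sided, p = 0.143, where 0.0159 is the smallest possible). The 2 genes are near-identical copies, and the sources used here do not say how reads were split between them, so that the ratio is uncertain. The level of Hbb-b1 alone differed by -1.17 ± 3.58 (log2).

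**Figure D5:**
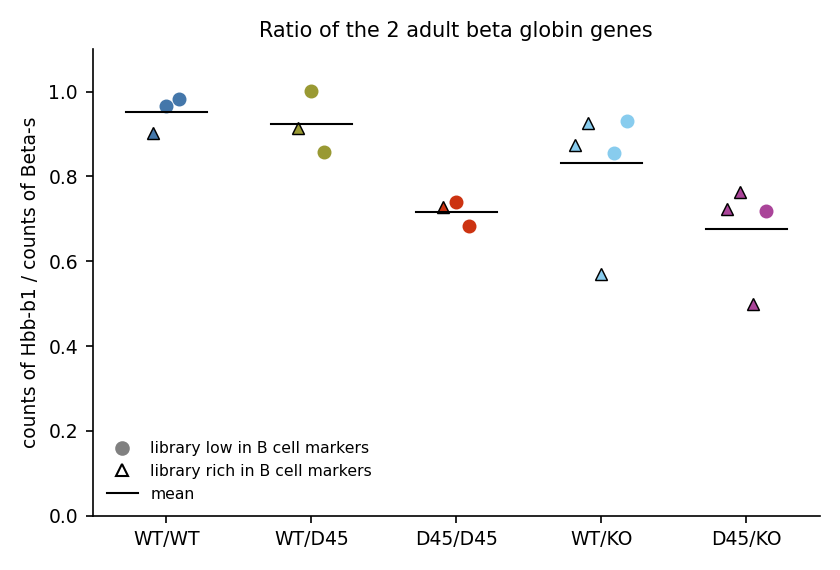
Ratio of the counts of Hbb-b1 to those of Beta-s in each library of the 5 genotypes, with the mean of each genotype as a line and triangles for libraries rich in B cell markers. The 3 D45/D45 libraries sit between 0.683 and 0.741 and the 3 WT/WT libraries between 0.903 and 0.983.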

How the data were processed

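Sorted splenic erythroblasts (CD71+/TER119+) were sequenced as RNA, and the authors deposited raw counts per gene symbol for 18 libraries of 5 genotypes, 3 each of D45/D45 and WT/WT. HISAT2, featureCounts, limma and the build mm9 are named in the submitters' processing notes, without roles or versions, and no source used here gives the strand setting. From the deposited counts, edgeR 4.0.16 (R 4.3.3) was run with its filter on low counts by genotype, which left 13405 of 23365 rows, TMM scaling, genotype as the only term and all 18 libraries, which share 1 estimate of the spread. Calls were Benjamini-Hochberg adjusted p-values under 0.05. CPM values are counts per M (1000000) of the TMM-scaled library size, and log2 CPM has a prior count of 2. The SE of a log2 difference was taken as its size over the square root of the F statistic, which is approximate. Globin counts are few for alpha globin, and the 27 symbols that spreadsheets turned into dates were never named.

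The replicate numbers of the labels were read as pairing D45/D45 with WT/WT because the deviations of same-numbered libraries from their group means correlated in each pair (0.71, 0.35 and 0.19, against -0.55 to 0.28 for other pairs). No label ties a number to a litter or a day. No 2 libraries were identical. The alternatives were other scaling, no filter, DESeq2 1.42.0, limma 3.58.1 (voom, with and without library weights), robust estimation, the 6 libraries alone, the replicate block, the B cell marker level or the range of the mouse identifier as a term, only libraries low in B cell markers, and each library left out. The scripts were tested on simulated data.

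Named genes were Klf1, genes called with the block or in D45/KO against WT/KO, the 8 per direction with the smallest p among genes with at least 2 CPM and groups that did not overlap, up to 2 per list and direction with an unadjusted p under 0.05, and 22 listed genes. Some are left out for length or are not reported here, and others are named as chosen after their values were seen. The comparison, the lists and the rules were chosen with earlier results of these data known.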

Additional observations from a re-analysis of the deposited data

Results flagged for a closer look

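A single library stood apart from the others of its genotype, by the gap to its nearest neighbour over the whole range of the group, in 2 of 22 tests on the 10 genes called with the replicate block and on Klf1 in the 2 genotypes with at least 4 libraries. Chance alone flags about 1 in 20 such groups. Sec14l1 was at 32.1 CPM in D45/KO replicate 2 and at 18.7 to 20.6 CPM in the other D45/KO libraries, a gap of 0.857 of the range. Glipr2 was at 66.9 CPM in the same library and at 95.8 to 101 CPM in the other D45/KO libraries, a gap of 0.857 of the range. Both library values lie toward the levels of WT/KO, and neither gene was called in D45/KO against WT/KO. Groups of 3, which include D45/D45 and WT/WT, were not tested.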

How the results depend on the processing

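The number of genes called between D45/D45 and WT/WT, 0 by edgeR with genotype alone, was 0 with no filter, with limma-voom and with robust estimation. It was 3 with the size factors of DESeq2 (0 higher, 3 lower), 68 with DESeq2 itself (25 and 43), 138 with library weights (57 and 81), 1 on the 6 libraries alone, 2 with the range of the mouse identifier as a term, 52 with a covariate for B cell markers (20 and 32) and 186 on the libraries low in B cell markers (75 and 111). With each library left out in turn it ran from 0 to 3, with 3 without WT/WT replicate 1. The size factors of DESeq2 moved the median difference of all genes from 0.01 to -0.10. The causes were not tested.

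With the replicate block the count was 10, and 16 on the 6 libraries alone (5 higher, 11 lower). With the block and each library left out, alternatives chosen after seeing the data, it ran from 0 to 9 (6 without WT/WT replicate 1, 9 without D45/D45 replicate 1, 0 without any other of the 6), and none of the 10 genes was called in all of these fits. All 10 kept their direction under every setting run. In D45/KO against WT/KO the count of 23 became 185 with DESeq2, 128 with the block and 396 with the B cell covariate, and ran from 9 (without D45/KO replicate 3) to 36 (without WT/KO replicate 5). The test of the difference between the comparisons gave 2 with DESeq2, 2 with the covariate and 0 otherwise.

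Of 83 genes, 78 kept their direction in all settings. Slc4a1 (0.02) was at -0.11 with the size factors of DESeq2 and with DESeq2, -0.044 with library weights and with the covariate, -0.069 on the 6 libraries, -0.0901 on the libraries low in B cell markers, -0.39 to 0.42 with a library left out (-0.39 without WT/WT replicate 1), -0.21 and -0.18 without D45/D45 replicates 2 and 3, and with the block -0.16 without WT/WT replicate 1 and -0.046 without D45/D45 replicate 2. With a library left out, the log2 fold change of Ank1 ran from -0.00305 to 0.55 and that of Epor from -0.035 to 0.56, both lowest without WT/WT replicate 1. That of Alas2 ran from -1.41 to 0.19, highest without WT/WT replicate 3, and was at 0.32 without that library and with the block, where Hbb-b1 was at 0.25. Of 600 list medians, 39 moved by more than the spread of their replicates. Depth limits genes at a few CPM, such as Tinagl1 and Rgcc in D45/D45.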

Other observations

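Genes next to Klf1 were looked at after the values were seen, since a mutant allele carries its neighbours with it in crosses. Of the 50 tested genes nearest to Klf1 on chromosome 8 (25 on each side in the order of the RefSeq table), 3 were higher in D45/D45 at an unadjusted p under 0.05, the glutaryl-CoA dehydrogenase gene Gcdh (1.40 ± 0.55, log2), the deoxyhypusine synthase gene Dhps (1.37 ± 0.53) and Wdr83 (1.07 ± 0.46). Neto2 was lower (-3.18 ± 1.16). The median of the 50 was 0.27, where that of all genes was 0.01, and 8 had D45/D45 libraries all above and 2 all below the WT/WT libraries (7.38% and 3.65% of all genes). The shares of all genes with an unadjusted p under 0.05 were 2.44% higher and 1.63% lower. None of the 50 was called with the replicate block, and 0 of the 10 genes called with the block lie on chromosome 8. Over 19 settings of the analysis Gcdh was called in 4 and Dhps, Wdr83 and Neto2 in 0. Exons of Dhps and Wdr83 overlap on opposite strands, by up to 128 bases for a pair of exons. Reads there cannot be told apart if strand was ignored in the counting, which is not stated.

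The median difference in D45/KO against WT/KO was 0.66 for neutrophil, -0.13 for macrophage and -0.26 for megakaryocyte markers, where D45/D45 against WT/WT had -1.84, -1.06 and 0.55. The summed megakaryocyte levels were nevertheless higher in D45/KO (458 to 842 CPM) than in WT/KO (63.2 to 270 CPM), without overlap, and Itga2b and F2r had log2 differences of 2.64 and 1.94 there. Whether the list medians or the sums differ between the comparisons was not tested. For single genes, edgeR's test of the difference between the comparisons gave -0.13 ± 1.20 for Itga2b (unadjusted p = 0.918). It gave 0.85 ± 0.91 for F2r (unadjusted p = 0.367).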
